A study of Mus musculus with 6 samples.

Results

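A set of 10 genes of the p53 pathway and of the inhibitors of cyclin-dependent kinases (CDKs) was examined in cultured mouse bone marrow cells with and without Dnmt3a, a DNA methyltransferase that sets new methylation marks. They were taken by gene symbol, and 10 of 10 listed symbols had a row among the 15139 rows of the deposited table: Trp53 (gene 22059), Mdm2 (gene 17246), Cdkn1a (gene 12575), Cdkn1b (gene 12576), Cdkn2b (gene 12579), Cdkn2c (gene 12580), Cdkn2d (gene 12581), Gdf15 (gene 23886), Ccng1 (gene 12450) and Btg2 (gene 12227). Marrow was kept for 1 week in RPMI with serum, IL3 at 10 ng/ml and SCF at 50 ng/ml, cytokines that favour myeloid and mast cells. Wild-type cells (WT, MxCre+v:Dnmt3a+/+) gave 3 libraries, and 2 libraries of knockout cells (KO, MxCre+v:Dnmt3a-/-), replicates 2 and 3, were used, while KO replicate 1 was not analysed here. Both genotypes carry Mx-Cre, a recombinase driven by an interferon-inducible promoter that acts in blood cells and in other tissues. The age and strain of the mice, and the way the recombinase was induced, are given nowhere in the sources used here. A label field calls the KO cells a knockdown. The title of the series names loss of Dnmt3a, blood cell homeostasis and the PI3K pathway. The labels themselves tie no replicate to a separate animal or culture, so p-values measure the spread between these libraries, which may in part be technical.

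The p53 protein, encoded by Trp53, is a transcription factor that is held low by the ubiquitin ligase MDM2 and is stabilised after DNA damage and other stress. It is controlled largely at the level of the protein, and it switches on Cdkn1a, Mdm2, Ccng1, Btg2 and Gdf15 among many genes. CDK inhibitors fall into a CIP/KIP family, which includes p21 (Cdkn1a) and p27 (Cdkn1b) and acts on several cyclin-CDK complexes, and an INK4 family, which includes p15 (Cdkn2b), p18 (Cdkn2c) and p19 (Cdkn2d) and acts on CDK4 and CDK6. In blood formation these inhibitors are known for restraining the division of stem cells and progenitors and for accompanying exit from the cell cycle during maturation.

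Levels are in FPKM (fragments scaled to gene length and to mapped fragments), so levels of different genes can be compared. Summed FPKM lay between 560387 and 604368 per library and the depth of the libraries is unknown. Dnmt3a was at 6.68 to 9.99 FPKM in WT and at 2.58 and 3.42 FPKM in KO, a log2 change of -1.25 ± 0.17 (SE; adjusted p from limma = 0.00279). Sex was not balanced: WT replicates 2 and 3 expressed Xist, while WT replicate 1 and both KO libraries expressed the Y-linked Ddx3y, so the WT group holds more than 1 animal. The blood cell marker Ptprc stood between 67.8 and 87.0 FPKM in the 5 libraries. Mast cell markers summed to 11868 to 13626 FPKM in WT and 28103 to 32282 FPKM in KO (7 of 10 tested rose, against 9.08% of all tested genes). Macrophage markers summed to 5188 to 7132 FPKM in WT and 1581 to 1886 FPKM in KO (8 of 9 tested fell). Most of that sum was Lyz2, with means of 5392.5 FPKM in WT and 1449 FPKM in KO. The macrophage marker Adgre1, at 102 and 98.7 FPKM, did not pass. Neutrophil markers summed to 21956 to 32534 FPKM in WT and 12573 to 16306 FPKM in KO (9 of 9 tested fell). Of all tested genes 13.0% fell. Of 8 lymphoid markers 4 had a row, each under 1 FPKM in every library, and Cd4 was listed at 0 in WT replicates 1 and 3. Whether these shifts in cell markers have a part in the results below was not tested, and in bulk RNA fewer cells of a type and less RNA per cell cannot be told apart.

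Of the 10 genes, 6 changed between the genotypes, 5 higher and 1 lower in KO, and 4 did not pass the test. Cdkn1a, Gdf15, Btg2, Mdm2 and Cdkn2b rose, and Cdkn2d fell. Fold sizes on the log2(FPKM + 1) scale ran from 2.29-fold for Gdf15 to 1.29-fold for Mdm2 among those that rose. Of all 11365 genes tested with limma, 22.1% changed (adjusted p under 0.05), 9.08% upward and 13.0% downward. Upward calls were 1032 of 2507, or 41.2%, and 56.8% after upper-quartile scaling of the libraries. Both KO libraries lay on the same side of the WT range, without overlap, for 6 of the 10 genes and for 51.1% of all tested genes. The median log2 change was 0.19 over the 10 genes and -0.04 over all tested genes. All 10 passed the filter on low values, with at least 9.64 FPKM in each library. The calls of Cdkn1a, Gdf15 and Btg2 held under 16 of 16 alternatives, and those of Cdkn2b, Mdm2 and Cdkn2d under 9, 7 and 6. A sex covariate leaves WT replicate 1 as the comparison for both KO libraries, and with it 3 of the 10 genes passed, against 11.5% of all genes. The same 3 passed without WT replicate 1, without WT replicate 2 and without WT replicate 3, and 4 passed without KO replicate 3, Cdkn2d being the fourth.

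**Figure D1:**
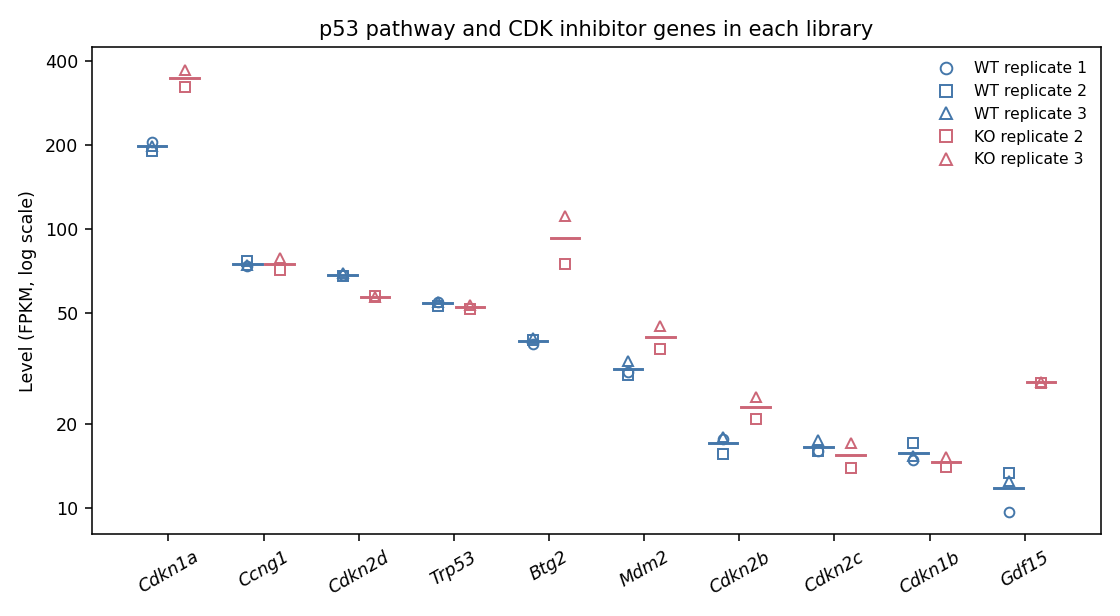
FPKM of each gene (log axis) in the 3 WT libraries (blue) and 2 KO libraries (red), with a bar at each group mean and genes ordered by their WT mean. Cdkn1a, Btg2 and Gdf15 show the widest gaps between the groups, and Cdkn2d is the gene whose KO libraries, at 57.5 and 56.8 FPKM, both lie under the WT range.

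In WT the order of mean levels was Cdkn1a (198 FPKM), Ccng1 (74.8), Cdkn2d (68.6), Trp53 (54.2), Btg2 (39.8), Mdm2 (31.5), Cdkn2b (17.1), Cdkn2c (16.5), Cdkn1b (15.8) and Gdf15 (11.8), all in FPKM. The WT libraries of Cdkn2b, Cdkn2c and Cdkn1b overlapped, so these neighbours were not set apart by their spread. The WT libraries of the other neighbouring pairs did not overlap. In KO, Btg2 had the second highest mean, at 93.0 FPKM, though its lower library overlapped those of Ccng1, and Gdf15 stood above Cdkn2b, Cdkn2c and Cdkn1b. Ranked among all rows, Cdkn1a stood at percentile 97.1 in WT and 98.3 in KO, and Gdf15 at percentile 63.3 in WT and 81.2 in KO.

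**Figure D2:**
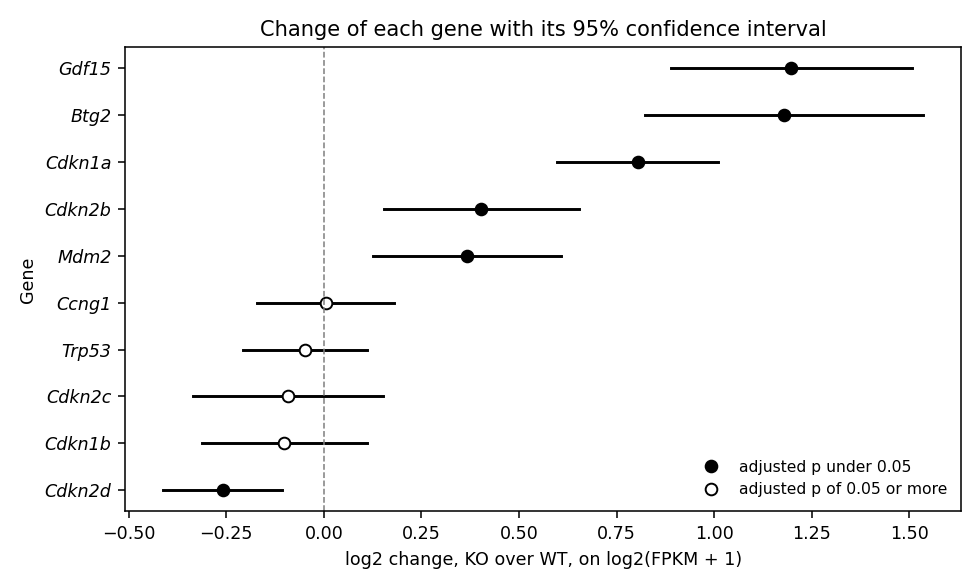
Log2 change of each gene, KO over WT, with its 95% confidence interval from limma (3 WT and 2 KO libraries). Filled points passed the test at an adjusted p under 0.05: 5 lie right of 0 and Cdkn2d lies left of it at -0.26.

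Promoter sequence is shown for 4 of the genes that changed, because Cdkn1a and Mdm2 are textbook targets of p53 and because Cdkn2b and Btg2 are the 2 of the 10 genes with a cyclic AMP response element. The windows come from RefSeq on GRCm38.p6, which matched 10 of 10 genes, and run 5′ to 3′ on the strand of the gene over the 250 bases before an annotated start. Capitals mark matches, on either strand, to the p53 decamer (the unit that p53 binds in pairs) or to the fixed motifs, which were the cyclic AMP response element TGACGTCA, the E-box CACGTG, the TATA box TATAAA, the GC box GGGCGG and the CCAAT box. Matches that touch or overlap share 1 run of capitals.
Cdkn1a, chr17:29090729-29090978, plus strand, the upstream start of 2: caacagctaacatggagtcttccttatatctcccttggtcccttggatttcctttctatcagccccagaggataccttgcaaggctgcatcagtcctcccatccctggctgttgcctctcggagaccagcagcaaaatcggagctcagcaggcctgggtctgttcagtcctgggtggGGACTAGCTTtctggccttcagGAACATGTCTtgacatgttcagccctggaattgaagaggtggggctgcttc
Mdm2, chr10:117710759-117711008, minus strand: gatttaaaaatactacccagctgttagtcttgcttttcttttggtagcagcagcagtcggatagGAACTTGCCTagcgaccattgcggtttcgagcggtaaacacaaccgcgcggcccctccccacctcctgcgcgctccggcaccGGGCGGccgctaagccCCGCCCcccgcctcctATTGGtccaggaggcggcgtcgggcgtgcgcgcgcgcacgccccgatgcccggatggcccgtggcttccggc
Cdkn2b, chr4:89311033-89311282, minus strand: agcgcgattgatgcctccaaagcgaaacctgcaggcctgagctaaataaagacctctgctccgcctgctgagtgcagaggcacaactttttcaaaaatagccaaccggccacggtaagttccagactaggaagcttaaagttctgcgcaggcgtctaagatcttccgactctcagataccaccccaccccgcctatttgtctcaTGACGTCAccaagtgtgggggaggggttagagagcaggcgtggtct
Btg2, chr1:134079156-134079405, minus strand: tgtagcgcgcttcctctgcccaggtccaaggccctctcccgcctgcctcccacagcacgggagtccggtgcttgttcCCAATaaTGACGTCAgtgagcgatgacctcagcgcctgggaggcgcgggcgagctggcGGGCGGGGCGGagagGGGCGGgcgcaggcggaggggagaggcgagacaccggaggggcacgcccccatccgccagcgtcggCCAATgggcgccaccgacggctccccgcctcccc
The capitals in Cdkn1a are 2 p53 decamers. In Mdm2 they are 1 p53 decamer, 2 GC boxes and 1 CCAAT box, and the promoter of this gene that p53 is known to use lies within its first intron, outside the window. In Cdkn2b they are 1 cyclic AMP response element, and in Btg2 1 such element, 3 GC boxes and 2 CCAAT boxes. Over all 32851 promoter windows of 300 bases, 8.36% held a p53 decamer, 1.79% the cyclic AMP response element, 35.7% a GC box, 37.4% a CCAAT box, 13.6% a TATA box and 7.15% an E-box. Those windows add the first 50 bases after the start to the 250 printed here, and the counts that follow are over all 300 bases. Windows of Trp53, Cdkn2d and Ccng1 held a p53 decamer too, and those of Gdf15 held none. The second window of Cdkn1a, not printed, held no p53 decamer and 2 GC boxes. CpG pairs over 300 bases numbered 35 for Mdm2 and 32 for Btg2, but 2 for the upstream start of Cdkn1a and 1 for the first window of Gdf15, against a median of 7. The second window held 23 for Cdkn1a and 7 for Gdf15. A match is a description of letters and no evidence of binding, and no methylation was measured in these files.

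Trp53 itself (chromosome 11, 69580348 to 69591873 in GRCm38.p6, the build of all positions here) did not pass the test. WT replicates 1 to 3 held 54.9, 52.9 and 54.8 FPKM, and KO replicates 2 and 3 held 51.5 and 53.3 FPKM. The groups overlapped, and the log2 change was -0.05 with a 95% interval from -0.21 to 0.11 (limma adjusted p = 0.656), positive after upper-quartile scaling (0.04) and quantile normalization (0.04). Mdm2, the ligase that marks p53 for degradation and is induced by it (chromosome 10, 117688875 to 117710758), was at 30.8, 29.9 and 33.7 FPKM in WT and at 37.0 and 44.9 FPKM in KO. Both KO libraries stood above the WT range, with KO replicate 3 the higher. The log2 change was 0.37 ± 0.10 (SE), limma adjusted p = 0.0424. The call of Mdm2 was lost when WT replicate 1, 2 or 3 was left out (adjusted p = 0.104, 0.130 and 0.0616), when KO replicate 3 was left out (0.151), with sex as a covariate (0.155) and with the replicate block (0.0516). It was also lost without the filter (0.0589), after scaling to the total (0.0610) and without the mean-variance trend (0.0676). Per unit of length, Mdm2 transcripts stood at 0.560 to 0.615 of the Trp53 level in the WT libraries and at 0.719 and 0.842 in KO.

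Among other regulators of p53, 1 of 12 tested genes passed (8.33%, against 22.1% of all genes) and none rose. Kat5, the acetyltransferase TIP60 that modifies p53, fell from 18.9 ± 0.522 FPKM in WT (SD, n = 3) to 13.4 ± 0.382 FPKM in KO (SD, n = 2), with a log2 change of -0.46 ± 0.08 (SE; adjusted p from limma = 0.00533). Usp7, a deubiquitinase of MDM2 and p53 (log2 change -0.07, adjusted p = 0.547), and Rchy1, a further p53 ligase (0.05, 0.708), did not pass. The median log2 change of the 12 was 0.01. After upper-quartile, median-of-ratios or quantile scaling, 1 of these regulators passed as higher.

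Cdkn1a (chromosome 17, 29090979 to 29100722), which encodes p21, the inhibitor through which p53 halts the cell cycle, was the most abundant of the 10 genes in each library. WT replicates 1 to 3 held 205, 191 and 198 FPKM of it, and KO replicates 2 and 3 held 323 and 373 FPKM. Every KO library was above every WT library, with no overlap. The mean rose from 198 ± 7.30 FPKM in WT (SD, n = 3) to 348 ± 35.6 FPKM in KO (SD, n = 2), or in log2 terms by 0.80 ± 0.09 (SE), limma adjusted p = 0.00104. Over the 16 alternatives the change of Cdkn1a ran from 0.70 to 0.91. In the authors' deposited table the adjusted p of Cdkn1a is 0.402, from a second test whose input the sources do not state. Relative to Trp53, Cdkn1a stood at 3.61 to 3.74 times its level in WT and at 6.26 and 7.0 times in KO.

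Cdkn1b, which encodes p27, the sister inhibitor that restrains CDK2 in resting cells (chromosome 6, 134920401 to 134925525), did not pass. It was at 14.9, 17.1 and 15.4 FPKM in WT and at 14.1 and 15.2 FPKM in KO, with overlapping groups and a log2 interval from -0.31 to 0.11 (limma adjusted p = 0.472). Genes that turn over p27 or drive its transcription were described as 1 list, which included the F-box gene Skp2 and the FOXO factors. None of its 10 tested genes passed in limma, against 22.1% of all genes, and none had an unadjusted p under 0.05. Cks2 (log2 change 0.02, adjusted p = 0.901) and Cks1b (-0.18, 0.402), cofactors of CDKs and of that degradation, were its most abundant members. Without KO replicate 2, Cks1b passed as lower (log2 change -0.42, adjusted p = 0.0137).

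Of the INK4 genes among the 10, Cdkn2b rose, Cdkn2d fell and Cdkn2c did not pass. Cdkn2b (chromosome 4, 89306289 to 89311032), the gene of p15, which is induced by TGF-beta, was at 17.6, 15.6 and 17.9 FPKM in WT and at 20.8 and 25.0 FPKM in KO. The groups did not overlap, and the log2 change was 0.40 ± 0.11 (SE; adjusted p from limma = 0.0343). The call of Cdkn2b ended when WT replicate 1, 2 or 3 was left out (adjusted p = 0.0619, 0.108 and 0.0649), when KO replicate 3 was left out (0.141), with sex as a covariate (0.209), with no filter (0.0519) and with no mean-variance trend (0.0521). An annotated long non-coding RNA, Gm12610, covers the whole 4744 bases of Cdkn2b, and the counting is not stated to use strand, so their reads may not have been told apart.

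Cdkn2c, the gene of p18 (chromosome 4, 109660876 to 109666756), was at 16.0, 16.0 and 17.5 FPKM in WT and at 13.9 and 17.0 FPKM in KO. Its groups overlapped, and the log2 interval ran from -0.34 to 0.15 (limma adjusted p = 0.576), with a positive change of 0.05 without KO replicate 2. Cdkn2d (chromosome 9, 21288459 to 21291421), the gene of the INK4 protein p19, was at 68.6, 67.9 and 69.3 FPKM in WT and at 57.5 and 56.8 FPKM in KO. Both groups were tight, and the KO libraries lay wholly below the WT libraries. The log2 change was -0.26 ± 0.06 (SE), limma adjusted p = 0.0286, the smallest change among the 6 called. The call of Cdkn2d was lost after median-of-ratios, upper-quartile, total and quantile scaling (adjusted p = 0.0598, 0.126, 0.0685 and 0.105), with sex as a covariate (0.175) and with the replicate block (0.125). It was also lost without WT replicate 1, 2 or 3 (0.0857, 0.102 and 0.115) and without the mean-variance trend (0.0598). In the authors' deposited table the adjusted p is 0.251 for Cdkn2b, 0.577 for Mdm2 and 1 for Cdkn2d.

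Cdkn2a, the neighbour of Cdkn2b 11669 bases away on chromosome 4, encodes both p16 and ARF, an inhibitor of MDM2, and FPKM per gene do not separate these products. It was the second most abundant CDK inhibitor gene described, at 150, 135 and 153 FPKM in WT and 180 and 178 FPKM in KO, with no overlap. Its log2 change was 0.29 ± 0.08 (SE; adjusted p from limma = 0.0396), but the call was lost when any 1 of the 5 libraries was left out (adjusted p = 0.0777, 0.149 and 0.0849 without WT replicates 1, 2 and 3, and 0.0676 and 0.0737 without KO replicates 2 and 3). It was lost as well with sex as a covariate (0.255), the replicate block (0.101) and no mean-variance trend (0.0694). Cdkn1c, the third CIP/KIP gene, was under 1 FPKM in each library and was not tested.

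The 5 CDK inhibitor genes among the 10 were also summed, since FPKM are per length. Cdkn2a is not among the 10 and was left out, although its means of 146 FPKM in WT and 179 FPKM in KO exceeded those of every summed gene but Cdkn1a. The sums, their order and the shares therefore hold for these 5 genes alone. The sum was 323, 307 and 319 FPKM in WT and 429 and 487 FPKM in KO, 1.45 times the WT mean. An exact permutation test, two-sided, gave p = 0.2, the smallest that 3 against 2 libraries allow. Without Cdkn1a the sum was 117, 117 and 120 FPKM in WT and 106 and 114 FPKM in KO, the reverse order for the other 4 genes together (exact permutation p = 0.2, again the smallest possible). This 4-gene sum was not repeated after scaling, and the gap between the groups is narrow. Summed FPKM of whole libraries differed too, at 604368 in WT replicate 1 and 560387 in KO replicate 3. The order therefore holds for the unscaled values alone. The share of Cdkn1a in the sum was 62.1% to 63.7% in WT and 75.2% and 76.6% in KO. That of Cdkn2d was 21.3% to 22.1% in WT and 13.4% and 11.7% in KO, and that of Cdkn2b was close between the groups, with means of 5.39% and 5.0%. Mean shares of Cdkn1b (5.0% and 3.2%) and Cdkn2c (5.22% and 3.37%), which did not pass, were lower in KO too. A larger share of Cdkn1a lowers the others by construction, so a share does not measure the change of its own gene.

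**Figure D3:**
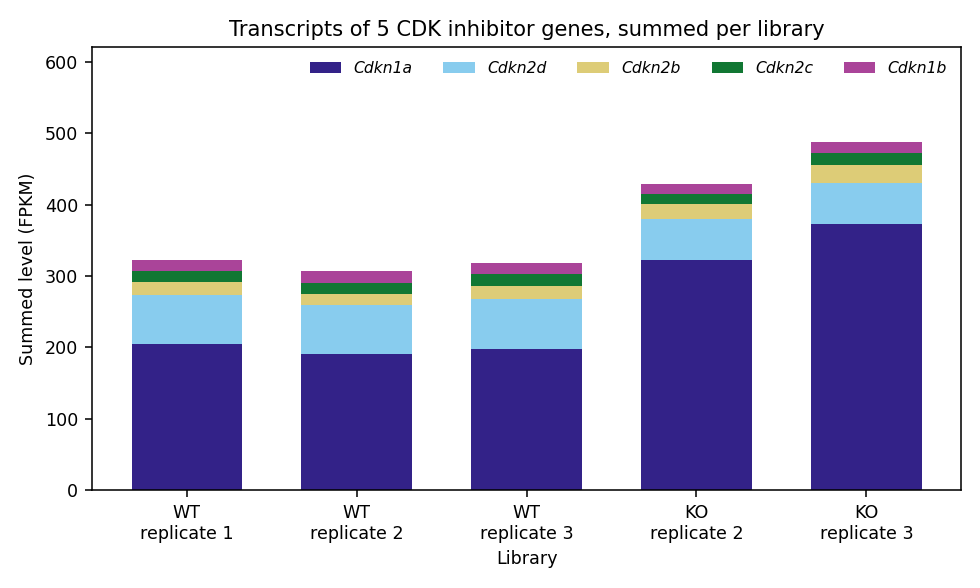
FPKM of 5 CDK inhibitor genes stacked per library, each colour being 1 gene. The WT bars end between 307 and 323 FPKM and the KO bars at 429 and 487 FPKM, and the dark lowest segment, Cdkn1a, is taller in both KO libraries.

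Gdf15 (chromosome 8, 70629393 to 70632470), a secreted stress cytokine of the TGF-beta superfamily, rose by about as much as Btg2, and their order changed between alternatives. The WT replicates 1 to 3 stood at 9.64, 13.4 and 12.5 FPKM, whereas KO replicates 2 and 3 stood at 28.0 and 28.4 FPKM. The KO libraries were close to each other and did not overlap the WT range, in which WT replicate 1 was lowest. The log2 change was 1.2 ± 0.13 (SE), limma adjusted p = 0.00104, and 1.45 with sex as a covariate. In the authors' deposited table the adjusted p of Gdf15 from their second test is 5.9e-09, and their first test gave an unadjusted p = 0.0015. Gdf15 is also known as a target of the integrated stress response. In a list of ATF4 and CHOP targets, chosen after the data were seen, 1 of 8 tested genes was higher and none lower. That is 12.5% called, against 22.1% of all genes, with a median log2 change of 0.24. The gene called was Ppp1r15a (log2 change 1.10, limma adjusted p = 0.000775). Atf4 (0.17, 0.291) and Ddit4 (0.30, 0.200) did not pass.

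Btg2 (chromosome 1, 134074865 to 134079155), an antiproliferative gene that belongs to the BTG/TOB family and also responds as an immediate early gene, was at 38.7, 39.9 and 40.6 FPKM in WT. In KO replicates 2 and 3 it was at 74.9 and 111 FPKM, so the WT libraries were tight while the KO libraries differed from each other and both lay above WT. The log2 change of Btg2 was 1.18 ± 0.15 (SE; adjusted p from limma = 0.00200), and 0.90 without KO replicate 3 against 1.46 without KO replicate 2. In the authors' deposited table its adjusted p from their second test is 0.0256, and their first test gave an unadjusted p = 0.0292. In a list of immediate early genes, also chosen after the data were seen, 9 of 9 rose, where 9.08% of all genes rose. Because of that choice the count is not read as support. The FPKM of these genes summed to 773 to 903 in WT, to 2233 in KO replicate 2 and to 2982 in KO replicate 3. KO replicate 3 was the higher KO library for that sum and for 9 of the 10 genes of the p53 and CDK inhibitor set, Cdkn2d being the exception. On the log2 scale those 9 differences ran from 0.02 for Gdf15 to 0.56 for Btg2. The median absolute difference between the KO libraries over all tested genes was 0.16. The share of all genes that were higher in KO replicate 3 was not counted, so the 9 of 10 is a description. The part of the immediate early genes in the level of Btg2 was not tested.

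Of 5 tested relatives of Btg2 and Ccng1, 3 rose and none fell, with a median log2 change of 0.51, where 9.08% of all genes rose. With 5 genes this is a description of them. Tob2, an antiproliferative adaptor, rose from 16.7 ± 0.540 FPKM in WT (SD, n = 3) to 29.2 ± 4.0 FPKM in KO (SD, n = 2), or in log2 terms by 0.77 ± 0.10 (SE), limma adjusted p = 0.00194. Btg1, the most abundant of them, rose from 263 to 402 FPKM (log2 change 0.61, adjusted p = 0.00441), and both calls held under 16 of 16 alternatives. Btg3 rose by 0.51 on the log2 scale (adjusted p = 0.0354), a call kept under 10 of 16 and lost without WT replicate 1, WT replicate 2, KO replicate 2 or KO replicate 3 (adjusted p = 0.0821, 0.0985, 0.139 and 0.0594), with the replicate block (0.0882) and without the filter (0.0608). Tob1 (-0.08, 0.637) and the cyclin G relative Ccng2 (-0.01, 0.930) did not pass.

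Ccng1 (chromosome 11, 40748552 to 40755309), cyclin G1, a direct p53 target that recruits a phosphatase to MDM2, did not pass. It was at 73.3, 76.8 and 74.4 FPKM in WT and at 71.4 and 78.9 FPKM in KO, and the KO libraries stood on either side of the WT range. The log2 change was 0.00 with an interval from -0.17 to 0.18 (limma adjusted p = 0.974). The interval of Ccng1 lies wholly below those of Cdkn1a, Gdf15 and Btg2, which start at 0.60, 0.89 and 0.82. A difference in response between these targets was not tested as such.

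Of 28 other p53 targets, all tested, 5 rose and 2 fell, a share of 25.0% against 22.1% of all genes, with a median log2 change of 0.13. Among those counted as higher, Eda2r, a death receptor gene of the TNF receptor superfamily, entered the test through its KO libraries alone, so its call is not read as support. It was at 0.840, 0.450 and 0.590 FPKM in WT and at 1.87 and 3.49 FPKM in KO, all low levels. It could be tested under 14 of 16 alternatives and passed in 13, not with sex as a covariate (limma adjusted p = 0.0841). Dram1, a regulator of autophagy, fell from 12.1 to 4.85 FPKM (log2 change -1.16 ± 0.14 SE, limma adjusted p = 0.00178), a call kept under 16 of 16 alternatives. Tigar, which lowers glycolytic flux, fell by 0.52 on the log2 scale (adjusted p = 0.0246), and lost its call without WT replicate 1, WT replicate 2 or KO replicate 3 (0.0683, 0.0644 and 0.109) and with the replicate block (0.0710). The other 4 called, named after their values were seen, were the death receptor gene Tnfrsf10b (0.51), Phlda3 (0.33), a brake on AKT, the repair gene Xpc (0.31) and Gadd45a (0.25). These 4 had limma adjusted p values between 0.0296 and 0.0428, and kept their calls under 10, 9, 7 and 8 of 16 alternatives. The most abundant targets that did not pass were the apoptosis gene Bax (-0.11, adjusted p = 0.402) and Perp (0.14, 0.375). The number called fell from 7 to between 2 and 5 when any 1 library was left out, and was 4 with sex as a covariate.

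**Figure D4:**
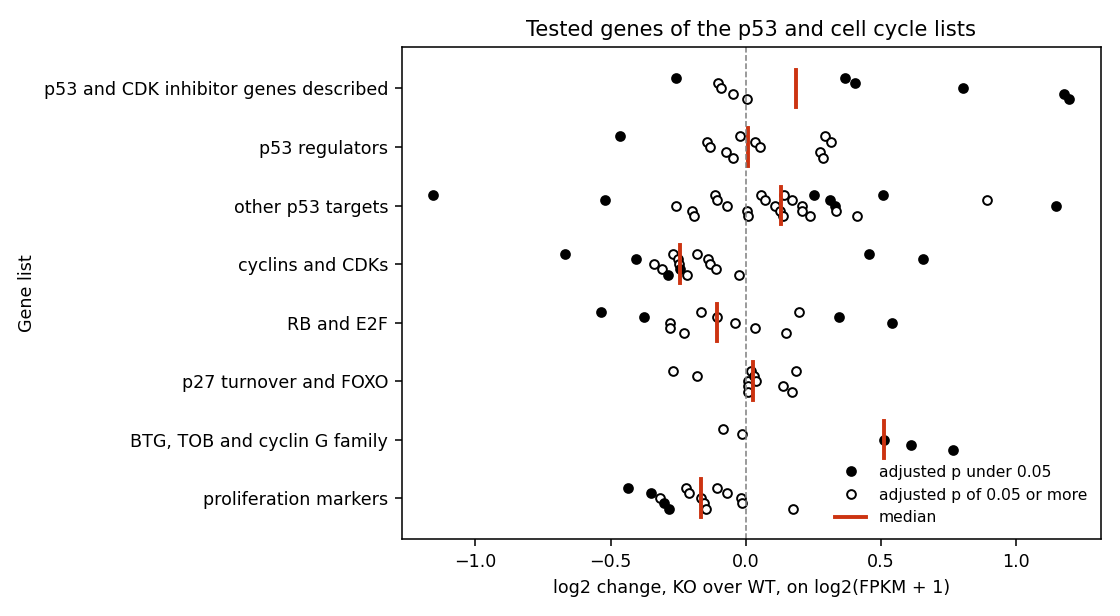
Log2 change of each tested gene in 8 gene lists, 1 point per gene, filled where the adjusted p was under 0.05, with the list median in red. The targets outside the 10 genes centre near 0.13, with Dram1 leftmost at -1.16, and the proliferation markers centre at -0.17.

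A list of cyclins, CDKs and the CDC25 phosphatases was split, 2 of 17 tested being higher and 4 lower (35.3%, against 22.1% of all genes), with a median log2 change of -0.24. Cdk6, a kinase bound by INK4 proteins, rose from 11.5 ± 0.438 FPKM in WT (SD, n = 3) to 18.8 ± 1.94 FPKM in KO (SD, n = 2), or in log2 terms by 0.66 ± 0.09 (SE), limma adjusted p = 0.00284, a call that held under 16 of 16 alternatives. Its partner cyclin D2, Ccnd2, rose by 0.46 (adjusted p = 0.0209), while cyclin D1, Ccnd1, fell from 2.16 to 0.980 FPKM (log2 change -0.67, adjusted p = 0.0171). Both cyclin calls were kept under 12 of 16 alternatives. That of Ccnd2 was lost without WT replicate 1, WT replicate 3 or KO replicate 3 (0.0555, 0.0551 and 0.0820) and with the replicate block (0.0526), and that of Ccnd1 without WT replicate 3 or either KO library (0.0542, 0.0543 and 0.0735) and with sex as a covariate (0.0515). The most abundant members, Ccnd3 (266 and 243 FPKM, adjusted p = 0.279) and Cdk4 (151 and 140 FPKM, 0.361), did not pass, although Ccnd3 passed as lower without KO replicate 2 (0.0495). The other 3 that fell were Cdc25a (-0.41), Cdc25b (-0.29), phosphatases that activate CDKs, and the mitotic cyclin gene Ccnb1 (-0.24), named after their values were seen. Their limma adjusted p values lay between 0.0369 and 0.0499. They kept their calls under 4, 4 and 5 of 16 alternatives. The calls of all 3 were lost under each of the 4 scalings (where 2 genes of this list rose and 1 fell), without the trend, with sex as a covariate, with the replicate block and without WT replicate 1, WT replicate 2 or KO replicate 3. Those of Cdc25b and Ccnb1 were lost without WT replicate 3 too, those of Cdc25a and Cdc25b without KO replicate 2, and that of Cdc25a without the filter.

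In the RB and E2F list, through which CDK4 and CDK6 act, 2 of 13 tested genes rose and 2 fell, or 30.8% against 22.1% of all genes (median log2 change -0.11). Rb1, the retinoblastoma gene, rose from 22.1 ± 1.72 FPKM in WT (SD, n = 3) to 32.6 ± 1.04 FPKM in KO (SD, n = 2), or in log2 terms by 0.54 ± 0.09 (SE; adjusted p from limma = 0.00487), kept under 16 of 16 alternatives. Its relative Rbl2 rose by 0.34 (adjusted p = 0.0479), kept under 7. E2f2, an activating member, fell by 0.53 on the log2 scale (adjusted p = 0.00718), a call lost with sex as a covariate (0.0618). E2f6, a repressing member, fell by 0.38 (adjusted p = 0.0159), a call lost with sex as a covariate (0.133), the replicate block (0.0529) and without WT replicate 2 or 3 (0.0562 and 0.0680). Tfdp1 (-0.23, 0.0601), the partner of E2F proteins, passed as lower without KO replicate 3 (0.0355), and E2f4 (-0.17, 0.120) did not pass. Proliferation markers summed to 969 to 1005 FPKM in WT and to 870 and 914 FPKM in KO. None of the 15 rose and 4 fell (26.7%, where 13.0% of all genes fell), namely Plk1 (-0.43), Bub1 (-0.35), Aurkb (-0.30) and Mcm5 (-0.28), with limma adjusted p values between 0.00839 and 0.0451. Plk1 kept its call under 16 of 16 alternatives, and Bub1, Mcm5 and Aurkb under 9, 5 and 4. Whether these markers have a part in the levels of the CDK inhibitor genes was not tested.

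**Figure D5:**
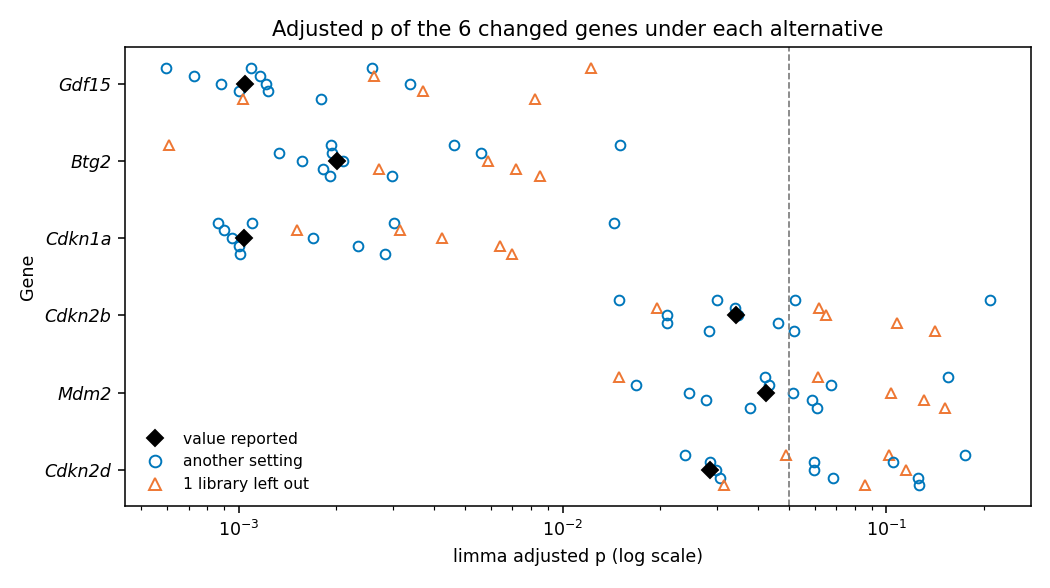
Adjusted p (log axis) of the 6 changed genes under the reported fit (diamonds), 11 other settings (circles) and 5 fits with 1 library left out (triangles), with a dashed line at 0.05. The points of Gdf15, Btg2 and Cdkn1a all lie left of the line, at 0.0151 or less, and those of Cdkn2b, Mdm2 and Cdkn2d fall on both sides.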

How the data were processed

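Messenger RNA of 3 WT and 2 KO libraries was compared. The deposited values are FPKM, 1 row per gene, rounded to 2 decimals, per the file headers. Tools in the submitters' processing notes are HISAT, edgeR and StringTie 1.2.1, and the build is mm10, with roles unstated, and no source used here states strand, annotation or counting. Low FPKM showed no common step: over 910 low genes in WT replicates 1 and 2 the fullest ratio bin held 5.82%. Read depth and counting error are therefore unknown. The authors also deposited a signed fold (a score), p-values and adjusted p-values, and a log fold change and level (scores) of unstated base. Those last 2 were not used.

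Genes with at least 1 FPKM in 2 or more libraries (11365) were tested with limma 3.58.1 in R 4.3.3 on log2(FPKM + 1), which understates changes of low genes, with a mean-variance trend, 1 term for genotype and 3 residual degrees of freedom. The Benjamini-Hochberg adjustment ran over all these genes. The fit was run on simulated data with the same spread for every gene and planted changes larger than those of Mdm2, Cdkn2b and Cdkn2d. That run therefore does not bear on calls of small changes. Alternatives varied pseudocount, filter, scaling, variance model, covariates and libraries. The members, gene lists and tests were chosen with earlier results of these data known. Named genes are all 10 members, Dnmt3a and, per list, the 3 called genes that changed most and the 2 most abundant not called (all genes in lists of 5 or fewer). Promoter letters came from RefSeq. A comparison of protein sequences that had been planned was not run. Marker lists not described in the results were those of basophils (2 of 4 tested higher, none lower), eosinophils (1 of 5 higher, none lower) and erythroid cells (none of 6 higher, 3 lower). Of all tested genes 9.08% were higher and 13.0% lower.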

Additional observations from a re-analysis of the deposited data

How the results depend on the processing

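With 3 against 2 libraries and unknown depth, small changes are the least certain. The number of genes changed, 2507, was 1312 with sex as a covariate and 1623 to 2659 with 1 library left out (1623 without WT replicate 2). The number of the 10 genes changed, 6, was 3 with sex as a covariate or without the mean-variance trend, and 3 to 6 with 1 library left out. The log2 ratio of summed CDK inhibitor FPKM, 0.53, was 0.58 under median-of-ratios, 0.63 under upper-quartile and 0.60 under quantile scaling, and 0.44 to 0.62 with 1 library left out.

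Counts in the gene lists moved as follows. For p53 regulators, 2 genes passed in place of 1 under upper-quartile, median-of-ratios or quantile scaling and without the trend, and 1 to 2 with 1 library left out. For other p53 targets, 7 became 4 without the trend or with sex as a covariate, 3 with the replicate block, and 2 to 5 with 1 library left out. For Cdkn2a, the tested gene of its list, 1 became 0 without the trend, with sex as a covariate, with the replicate block and with any 1 library left out. For cyclins and CDKs, 6 became 3 under each of the 4 scalings and without the trend, 2 with sex as a covariate or the replicate block, and 1 to 7 with 1 library left out. For RB and E2F, 4 became 1 with sex as a covariate, 2 with the replicate block, and 2 to 4 with 1 library left out. For p27 turnover, 0 became 0 to 1 with 1 library left out.

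Sign changes were confined, in these alternatives, to genes that did not pass. Ccng2 had a log2 change of 0.032, 0.077, 0.013 and 0.060 under median-of-ratios, upper-quartile, total and quantile scaling, and of 0.032 with sex as a covariate. Upper-quartile scaling gave 0.043 for Trp53, 0.016 for Usp7 and 0.0048 for Tob1, and quantile normalization gave 0.038 for Trp53. Sex as a covariate gave -0.068 for Rchy1 and -0.0039 for Cks2, and the replicate block -0.0097 for Ccng1. With 1 library left out, Ccng1 ran from -0.067 to 0.076, Cdkn2c from -0.23 to 0.045, Cks2 from -0.11 to 0.15, Cks1b from -0.42 to 0.063, Ccng2 from -0.060 to 0.036 and Tob1 from -0.22 to 0.056. The cause of these shifts was not tested.

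WT and KO share the replicate numbers 2 and 3, which the labels do not tie to a shared animal or day. Deviations from the group means correlated at -0.03 between the libraries numbered 2 and at 0.10 between those numbered 3. The deviations of the 2 KO libraries mirror each other by construction. These values therefore cannot show whether libraries with the same number share anything else. With the replicate block, 2058 genes and 4 of the 10 changed, Mdm2 (adjusted p = 0.0516) and Cdkn2d (0.125) losing their calls.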
